A study of Mus musculus with 24 samples.

Results

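Genes that fold, modify, move or destroy proteins in the endoplasmic reticulum (ER), and the sensors that answer ER stress, were examined in mouse hearts taken at 90 days of age. The set was 31 named genes, taken by symbol, of 18193 genes with their own probe sets on the Affymetrix arrays. All 31 matched, through 77 probe sets annotated to a single one of them, and 1 further probe set shared by Sec61b and another gene was not used. Expression was measured in 24 hearts, 6 for each of 4 genotypes, 1 array per heart. ARG and GLY mice carried the human beta1-adrenergic receptor in its Arg389 or its Gly389 polymorphic form, AC5 mice carried human AC5, the adenylyl cyclase that makes cyclic AMP downstream of the receptor, and NTG mice were non-transgenic. Each transgene was a human cDNA driven by the alpha-myosin heavy chain promoter, which confines it to heart muscle cells. The labels call the hearts biological replicates. They give neither the strain nor the number of founder lines, so a change may belong to a line rather than to its transgene.

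Proteins that leave the cell or sit in its membranes enter the ER through the Sec61 channel and fold there with the help of chaperones and disulphide isomerases. Glycoproteins pass through the calnexin and calreticulin cycle, and chains that fail to fold are pulled back to the cytosol and degraded, a route known as ER-associated degradation. When unfolded chains build up, the sensors Ire1 (Ern1), Perk (Eif2ak3) and Atf6 start the unfolded protein response, which raises transcription of chaperone and degradation genes through Xbp1 and cleaved Atf6, and slows translation through Perk. In heart muscle this response is known from pressure overload, ischaemia and failing hearts, and the ER of these cells adjoins the calcium store that drives contraction.

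Each deposited value was read as the ratio of a heart's signal to the level in NTG mice. That reading rests on NTG values near 1 and is not stated by the submitters. A ratio holds no signal level, so the abundance of a transcript, and the heart identity of the samples by absolute marker level, could not be examined. Differences were tested on the log2 scale with limma over all 45037 probe sets. A gene is said to have risen, fallen, or been called higher or lower when its lead probe set passed an adjusted p of 0.05. That probe set was chosen by its suffix and number, not by its values. Each change is given as log2 ± SE over 6 hearts per genotype. The arrays of GLY replicate 1, GLY replicate 3 and ARG replicate 1 had weights of 0.354, 0.312 and 0.478, all under 0.5, in limma's estimate of array quality. Results for replicates 1 to 3 alone and for replicates 4 to 6 alone are given too. Those sets were picked from the values in an earlier analysis, and the labels name none. In the NTG values they looked separately centred, each on its own level.

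The ER stress element is the promoter sequence by which this response is best known to act on chaperone genes. It was searched as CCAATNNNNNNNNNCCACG (N is any base) on both strands of RefSeq promoter windows (mouse build GRCm38.p6), from 250 bases before to 50 bases after each annotated start. Of the 31 genes, 26 had a window, and Hyou1, Manf, Atf6, Derl1 and Sec61a1 are not analysed here in this respect. The element stood in 9 of the 26 (34.6%), against 37 of 27025 genes (0.137%). The set was named for ER folding and stress, and such elements are best known from genes of this kind. These shares, and those of the related element below, are therefore no test of the set. The 10 sites are printed because several of the genes described below hold one. Capitals mark the CCAAT and CCACG blocks, and each site reads 5′ to 3′ on the strand that matches.
Hspa5: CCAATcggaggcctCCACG
Hsp90b1, farther site: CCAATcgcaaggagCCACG
Hsp90b1, nearer site: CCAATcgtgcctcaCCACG
Dnajc3: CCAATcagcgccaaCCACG
Calr: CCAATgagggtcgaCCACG
Canx: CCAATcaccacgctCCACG
Pdia6: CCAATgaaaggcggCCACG
Creld2: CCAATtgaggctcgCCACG
Syvn1: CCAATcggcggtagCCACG
Derl3: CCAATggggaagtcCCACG
The blocks are fixed by the search, and the 9 bases between them differed in every site. The site lay on the strand opposite to the gene in Calr, Creld2, Derl3 and the nearer site of Hsp90b1. Counted from the start as position 0, it began at -65 in Hspa5, the ER chaperone in which such elements are classically described, and at -212 at the farther site of Hsp90b1. A related element, searched as ATTGGNCCACG, stood in 2 of 26 genes (7.69%), against 12 of 27025 (0.0444%).
Dnajb11: ATTGGcCCACG
Herpud1: ATTGGgCCACG
A match describes these letters and is not a binding site shown by experiment.

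**Figure D1:**
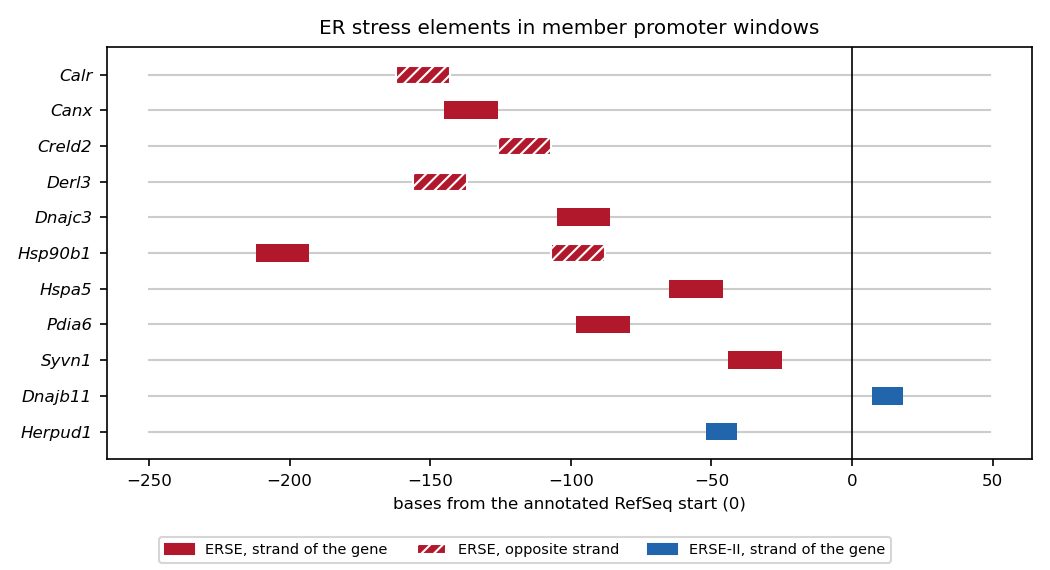
Position of each ER stress element in the promoter windows of the 11 genes that hold one, in bases from the annotated RefSeq start (0), with windows as grey lines. Red bars are the longer element (hatched where it lies on the strand opposite to the gene), and blue bars the shorter related one. All but the Dnajb11 site lie before the start.

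Of the genes that rose in ARG hearts, 3 held the element, and their whole windows are printed on the strand of the gene, in order of their change. The Creld2 window is chr15:88819396-88819695 on the plus strand, the Derl3 window chr10:75893148-75893447 on the plus strand and the Calr window chr8:84846882-84847181 on the minus strand. Because the element lies on the other strand, the capitals show it as CGTGG followed by ATTGG.
Creld2: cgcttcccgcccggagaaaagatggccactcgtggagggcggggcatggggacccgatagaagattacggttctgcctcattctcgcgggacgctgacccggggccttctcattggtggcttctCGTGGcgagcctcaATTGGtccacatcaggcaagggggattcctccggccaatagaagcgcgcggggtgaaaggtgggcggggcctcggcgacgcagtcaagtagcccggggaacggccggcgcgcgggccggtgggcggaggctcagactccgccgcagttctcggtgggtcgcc
Derl3: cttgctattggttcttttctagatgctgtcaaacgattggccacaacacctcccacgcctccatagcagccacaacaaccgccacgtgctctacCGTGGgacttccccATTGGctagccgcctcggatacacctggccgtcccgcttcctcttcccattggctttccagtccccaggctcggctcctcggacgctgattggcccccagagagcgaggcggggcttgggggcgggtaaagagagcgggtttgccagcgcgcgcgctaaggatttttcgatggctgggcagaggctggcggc
Calr: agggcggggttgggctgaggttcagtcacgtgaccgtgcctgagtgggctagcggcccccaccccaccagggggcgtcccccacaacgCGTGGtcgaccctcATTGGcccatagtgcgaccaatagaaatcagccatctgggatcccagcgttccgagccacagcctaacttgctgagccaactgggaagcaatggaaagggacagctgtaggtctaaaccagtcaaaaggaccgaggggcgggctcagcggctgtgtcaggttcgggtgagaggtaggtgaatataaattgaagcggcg

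In ARG hearts set against NTG hearts, 8 of the 31 genes rose and none fell. They were Sdf2l1, Creld2, Edem1, Manf, Derl3, Pdia4, Calr and Sec61b, and they came from every role in the set except the stress sensors. Of all genes tested in that comparison 11.3% were called, and 4.24% rose. The median change of the 31 genes was 0.22 on the log2 scale and that of all genes -0.01. Changes were above 0 for 26 of the 31. In 6 of the 8 genes every ARG heart lay above every NTG heart, which held for 2.62% of all genes. Of the 77 probe sets 17 rose and none fell, where 9.67% of all probe sets were called and 4.04% rose. In whole hearts a change in RNA per cell cannot be told apart from a change in the number of cells of a type.

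**Figure D2:**
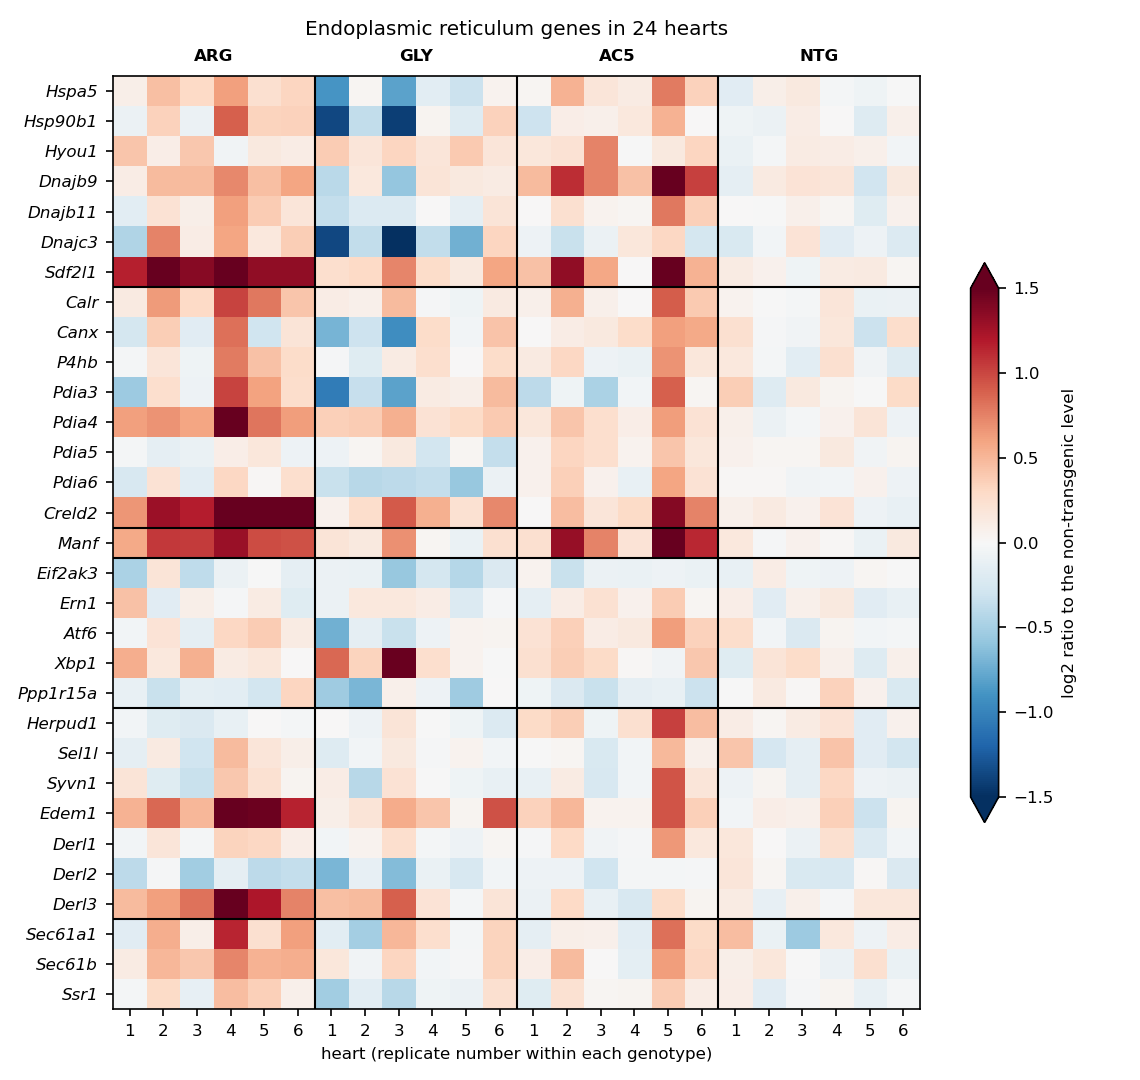
Log2 ratio to the non-transgenic level of the lead probe set of each of the 31 genes (rows, grouped by role) in each of the 24 hearts (columns, ARG, GLY, AC5 and NTG). Colours are capped at the ends of the scale shown. Sdf2l1 and Creld2 are high across the ARG columns, ARG replicate 4 and AC5 replicate 5 are high for most rows, and GLY replicates 1 and 3 are low for Hsp90b1, Dnajc3 and Pdia3.

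Among the chaperones of the Hsp70 and Hsp90 systems, 1 of 7 rose. Sdf2l1, a partner of the ER co-chaperone Dnajb11, had ratios of 2.23 to 4.46 (median 2.54) in ARG hearts, against 0.954 to 1.10 (median 1.07) in NTG hearts. Its lowest ARG heart was above its highest NTG heart, and it rose by 1.42 ± 0.20 on the log2 scale, a 2.67-fold rise (adjusted p = 2e-05). Hspa5, the central Hsp70 chaperone of the ER (often called BiP), had ratios of 1.06 to 1.53 (median 1.24) in ARG hearts, against 0.889 to 1.11 (median 0.987) in NTG hearts. The groups overlapped, and the change of 0.34 ± 0.14 was not called. Dnajb9, a co-chaperone of Hspa5 induced through Xbp1, had ratios of 1.08 to 1.64 (median 1.39) in ARG hearts, against 0.819 to 1.15 (median 1.10) in NTG hearts, and was not called (0.43 ± 0.16). The Hsp90 of the ER, Hsp90b1, changed by 0.32 ± 0.22 and the co-chaperone Dnajb11 by 0.22 ± 0.12, neither called.

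Of the 8 genes of the calnexin cycle and the disulphide isomerases, Creld2, Pdia4 and Calr rose. Creld2, an ER-resident disulphide isomerase known as a marker of ER stress, had ratios of 1.58 to 4.95 (median 2.69) in ARG hearts, against 0.926 to 1.15 (median 1.05) in NTG hearts. Every ARG heart was above every NTG heart, and the change was 1.40 ± 0.21 (2.64-fold, adjusted p = 4.6e-05). Pdia4, a disulphide isomerase, had ratios of 1.502 to 2.82 (median 1.56) in ARG hearts, against 0.944 to 1.15 (median 1.01) in NTG hearts, and rose by 0.77 ± 0.12 (adjusted p = 5.1e-05). The highest Pdia4 value, in ARG replicate 4, stood apart from the other 5. Calr encodes calreticulin, the soluble lectin chaperone that also buffers ER calcium. Its ratios were 1.10 to 2.02 (median 1.44) in ARG hearts, against 0.935 to 1.13 (median 0.985) in NTG hearts, with 5 of 6 ARG hearts above all NTG hearts. Calr rose by 0.55 ± 0.14 (adjusted p = 0.011), and all 3 of its probe sets were called. Its membrane-bound counterpart Canx (calnexin) changed by 0.06 ± 0.20, and the isomerases Pdia3, Pdia5 and Pdia6 by 0.14 ± 0.24, -0.05 ± 0.08 and 0.08 ± 0.11, none of them called. P4hb, the founding disulphide isomerase, changed by 0.27 ± 0.13 and was not called either.

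Manf, a small protein of the ER that is also secreted and protects cells under ER stress, rose by 0.94 ± 0.21 (adjusted p = 0.0033). Its ratios were 1.49 to 2.44 (median 2.02) in ARG hearts, against 0.932 to 1.12 (median 1.03) in NTG hearts, with no overlap. None of the 5 sensors and their effectors was called. The sensors changed by 0.07 ± 0.10 (Ern1), -0.13 ± 0.10 (Eif2ak3) and 0.14 ± 0.12 (Atf6). Xbp1, the transcription factor whose mRNA Ire1 splices, changed by 0.22 ± 0.17. Ppp1r15a, the phosphatase subunit that restarts translation after Perk has slowed it, changed by -0.18 ± 0.12. These probe sets measure the level of each mRNA and not the splicing of Xbp1, the cleavage of Atf6 or the phosphorylation of Perk.

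Of the 7 genes of ER-associated degradation, Edem1 and Derl3 rose. Edem1, which draws misfolded glycoproteins out of the calnexin cycle, had ratios of 1.41 to 3.51 (median 2.02) in ARG hearts, against 0.803 to 1.28 (median 1.04) in NTG hearts, with no overlap. It rose by 1.02 ± 0.19 (adjusted p = 0.00068), and its other probe set rose by 0.31 ± 0.10. Derl3, a stress-inducible member of the derlins that pass chains back through the ER membrane, rose by 0.84 ± 0.15 (adjusted p = 0.00046). Its ratios were 1.39 to 3.00 (median 1.72) in ARG hearts, against 0.915 to 1.13 (median 1.08) in NTG hearts, with no overlap. The related Derl1 changed by 0.13 ± 0.11 and Derl2 by -0.23 ± 0.11, and the core of the Hrd1 ubiquitin ligase, Syvn1 and its partner Sel1l, by 0.06 ± 0.15 and 0.07 ± 0.13, none of these called. Herpud1, a membrane scaffold of the same ligase and a well-known target of ER stress, changed by -0.16 ± 0.11, with ratios of 0.863 to 1.01 (median 0.946) in ARG hearts against 0.888 to 1.15 (median 1.06) in NTG hearts.

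At the translocon, Sec61b, the small beta subunit of the Sec61 channel, rose by 0.42 ± 0.12 (adjusted p = 0.019). Its ratios were 1.09 to 1.66 (median 1.43) in ARG hearts, against 0.934 to 1.18 (median 1.03) in NTG hearts, and 5 of 6 ARG hearts lay above all NTG hearts. That call was lost without NTG replicate 6 and without ARG replicate 4, where the change was 0.37 or more and the higher adjusted p was 0.0611. Sec61a1, the pore itself, changed by 0.41 ± 0.20 and Ssr1, of the translocon-associated complex, by 0.20 ± 0.12, neither called at its lead probe set.

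**Figure D3:**
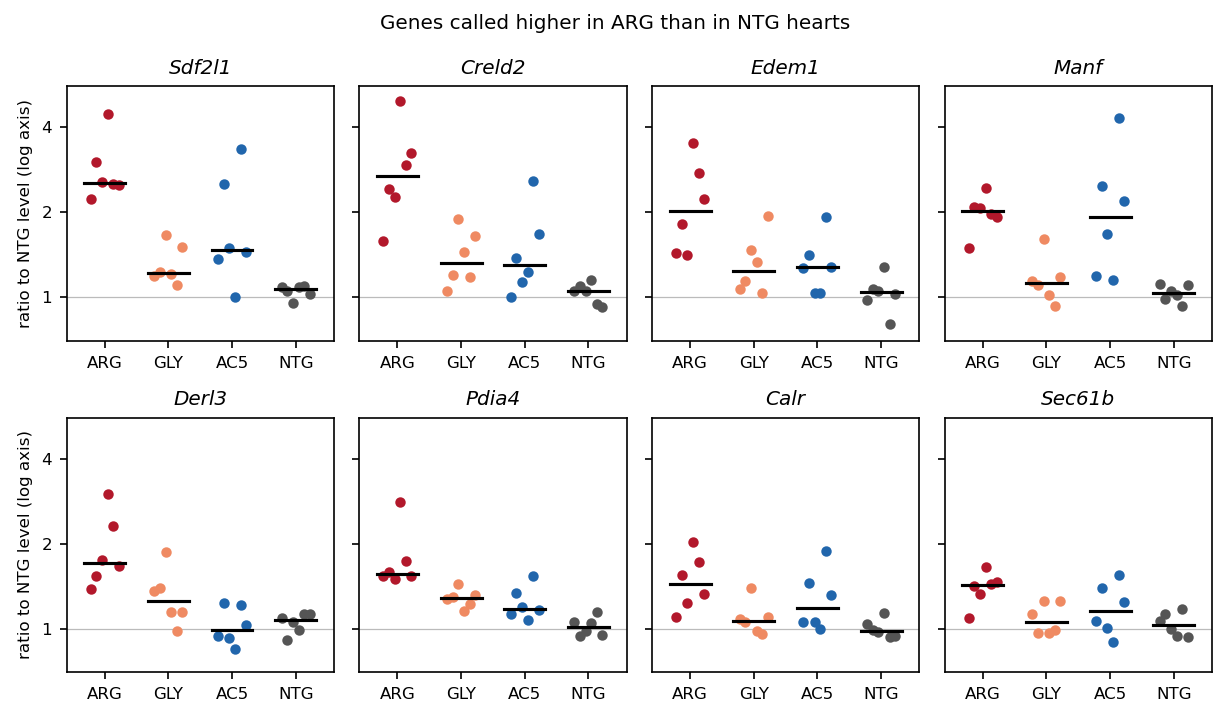
Ratio to the non-transgenic level (log axis) in each heart for the 8 genes that rose in ARG against NTG hearts, with black lines at the group medians. ARG hearts lie clear of NTG hearts in every panel except Calr and Sec61b, and for Manf most AC5 hearts lie as high as the ARG hearts.

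The size of these rises depended on normalization. Quantile normalization gives every array the same spread of values. Ratios to the NTG level lie nearest to that level in NTG hearts themselves, so the step may not suit such ratios. Each of the 8 changes was smaller after this step, and the reason was not tested. After quantile normalization between arrays, Sdf2l1 changed by 0.86, Creld2 by 0.79, Edem1 by 0.60, Manf by 0.59, Derl3 by 0.51 and Pdia4 by 0.51, all 6 still called. Calr (0.37, adjusted p = 0.0735) and Sec61b (0.24, adjusted p = 0.333) were not. Within replicates 1 to 3, Sdf2l1 (1.33), Creld2 (0.95), Pdia4 (0.64) and Derl3 (0.61) were called, and 3.58% of all genes. Within replicates 4 to 6, Creld2 (1.85), Sdf2l1 (1.51), Edem1 (1.45), Derl3 (1.07), Pdia4 (0.91) and Calr (0.74) were called, and 6.89% of all genes. Manf changed by 0.82 and 1.05 within the sets, and Sec61b by 0.26 and 0.58, not called in either.

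Probe sets of the same gene did not always move alike. Of the 31 genes, 17 had a called probe set in at least 1 of the 6 comparisons. Hyou1, a large ER chaperone that exchanges the nucleotide of Hspa5, changed by 0.16 ± 0.10 in ARG against NTG hearts at its lead probe set, and a second of its 3 probe sets rose by 0.66 ± 0.12 (adjusted p = 0.00032). At that second probe set ratios were 1.33 to 2.02 (median 1.72) in ARG hearts, against 0.953 to 1.19 (median 1.07) in NTG hearts. Dnajc3, a co-chaperone of Hspa5 that also inhibits Perk, changed by 0.34 ± 0.22 at its lead probe set, and 1 of its 5 probe sets rose by 0.74 ± 0.15 (adjusted p = 0.0014), with ratios of 1.36 to 2.39 (median 1.71) in ARG hearts against 0.885 to 1.16 (median 1.02) in NTG hearts. Sec61a1 rose at 3 of its 6 probe sets, by 0.53 to 0.60, and at all 3 the ARG hearts lay above the NTG hearts. Derl2 rose by 0.35 ± 0.08 at its second probe set, where its lead probe set was lower in ARG hearts and not called. Pdia4 rose at its lead probe set alone, and its second changed by 0.05 ± 0.10. With the mean of each gene's probe sets in place of the lead, 11 genes rose in ARG hearts: the same 8 together with Hspa5 (0.28 ± 0.09), Hyou1 (0.29 ± 0.06) and Sec61a1 (0.47 ± 0.12), where 13.3% of all genes were called. The changes of Pdia4 (0.41 ± 0.09) and Edem1 (0.66 ± 0.12) were then smaller than at the lead.

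**Figure D4:**
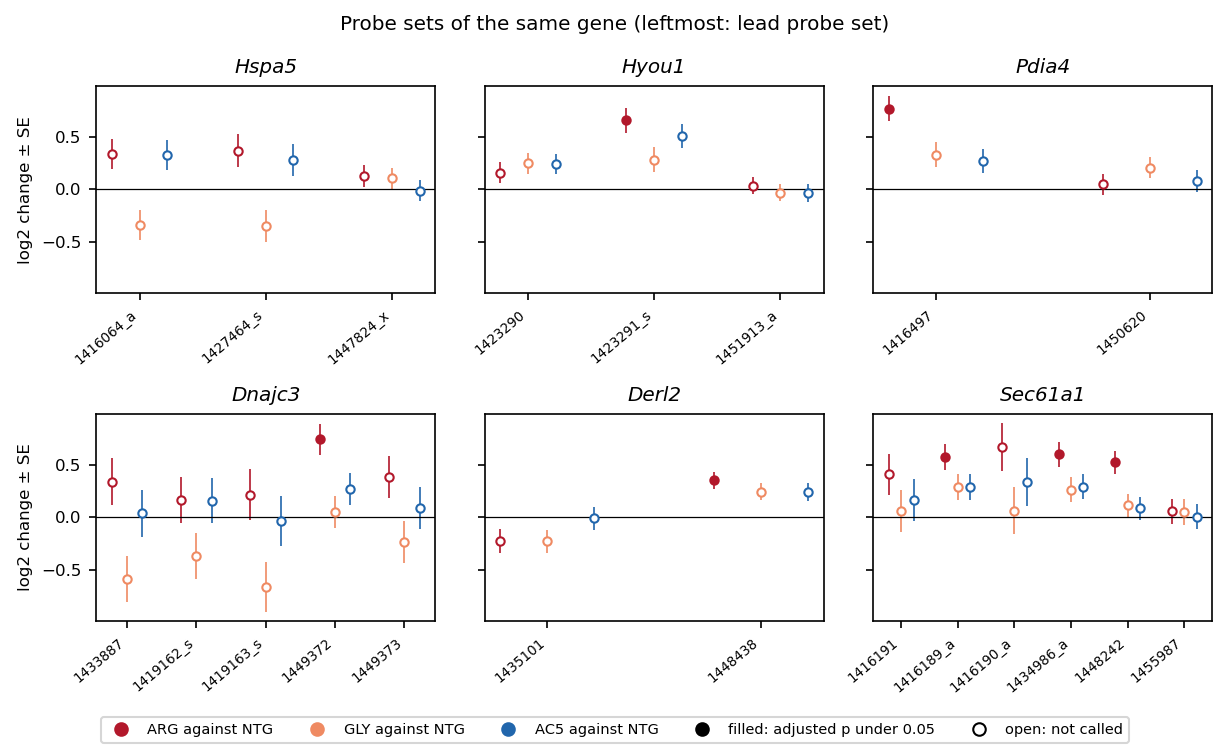
Log2 change against NTG hearts (± SE, 6 hearts per genotype) for every probe set of 6 genes whose probe sets differ, with the lead probe set at the left of each panel and filled points where the adjusted p is under 0.05. Hyou1, Dnajc3, Derl2 and Sec61a1 have ARG rises at probe sets other than the lead, and Pdia4 at its lead alone.

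In GLY hearts set against NTG hearts, none of the 31 genes and none of the 77 probe sets was called by limma. Of all genes 5.45% were called, and of all probe sets 5.08%. At an unadjusted p under 0.05 there were 10 of the 31 genes. The median change was -0.04, against 0.02 for all genes, with 14 genes above and 17 below 0. Pdia6, an isomerase that also acts on the stress sensors, came nearest (-0.35 ± 0.11, adjusted p = 0.0537), with ratios of 0.674 to 0.944 (median 0.771) in GLY hearts against 0.947 to 1.04 (median 0.992) in NTG hearts. Every GLY heart lay below every NTG heart there, which held for 2.06% of all genes. Its second probe set changed by 0.10 ± 0.09. Pdia4 (0.33 ± 0.12), Hyou1 (0.25 ± 0.10) and Sdf2l1 (0.31 ± 0.20) lay above every NTG heart in all 6 GLY hearts and were not called, a separation found upward in 1.04% of all genes. The GLY ratios of Sdf2l1 were 1.11 to 1.66 (median 1.22), all below its lowest ARG heart.

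The GLY changes differed between hearts. Hsp90b1 had ratios of 0.387 and 0.377 in GLY replicates 1 and 3, against 0.775 to 1.27 in the other 4 GLY hearts. In the same hearts Dnajc3 had ratios of 0.390 and 0.339 (others 0.607 to 1.25), Pdia3 0.483 and 0.575 (others 0.788 to 1.39), Hspa5 0.541 and 0.575 (others 0.801 to 1.03) and Canx 0.616 and 0.524 (others 0.806 to 1.35). Xbp1 went the other way at its lead probe set, with 1.81 and 2.79 (others 0.996 to 1.26), and its 3 other probe sets had 1.19 to 1.36 in those hearts. Other probe sets of Hspa5 and Pdia3 did not share the low values: 1 of 3 for Hspa5 had 1.42 and 1.20 (others 0.882 to 1.25), and the second for Pdia3 had 1.31 and 1.02 (others 0.977 to 1.17). These 6 genes were picked after their values were seen, and GLY replicates 1 and 3 are the arrays with the lowest weights. Within replicates 1 to 3, which hold both, Hsp90b1 (-1.03), Dnajc3 (-1.08), Pdia3 (-0.84) and Canx (-0.70) fell and Xbp1 (0.80), Derl3 (0.58) and Pdia4 (0.43) rose, 7 genes in all, where 6.17% of all genes were called. Within replicates 4 to 6, and without the 3 arrays of low weight, none of the 31 was called. The share of all genes called was 0.192% within replicates 4 to 6 and 3.07% without those arrays.

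In AC5 hearts set against NTG hearts 1 of the 31 genes rose, where 0.176% of all genes were called. It was Dnajb9, with ratios of 1.35 to 2.82 (median 1.86) in AC5 hearts, against 0.819 to 1.15 (median 1.10) in NTG hearts. All AC5 hearts lay above all NTG hearts, as in 0.418% of all genes, and the change was 0.84 ± 0.16 (1.79-fold, adjusted p = 0.021). Of the 77 probe sets that one rose, where 0.142% of all probe sets were called. Manf changed by 0.91 ± 0.21 and was not called (adjusted p = 0.0778), although its AC5 ratios of 1.15 to 4.32 (median 1.93) all lay above the NTG hearts. Sdf2l1 changed by 0.70 ± 0.20 (adjusted p = 0.204), with AC5 ratios of 1.00 to 3.36 (median 1.47) that overlapped NTG. The median change of the 31 genes was 0.18, against -0.01 for all genes, with 26 genes above 0. The Dnajb9 call was lost on leaving out NTG replicate 1 or 5 or AC5 replicate 2, 3, 5 or 6, where the change was 0.72 or more and the highest adjusted p was 0.0773. Within replicates 1 to 3 (0.71, adjusted p = 0.498) and within replicates 4 to 6 (0.97, adjusted p = 0.412) it was not called either, where 0.0385% and 0% of all genes were. After quantile normalization Dnajb9 (0.89), Manf (0.88) and Sdf2l1 (0.66) were all called, with 1.07% of all genes.

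**Figure D5:**
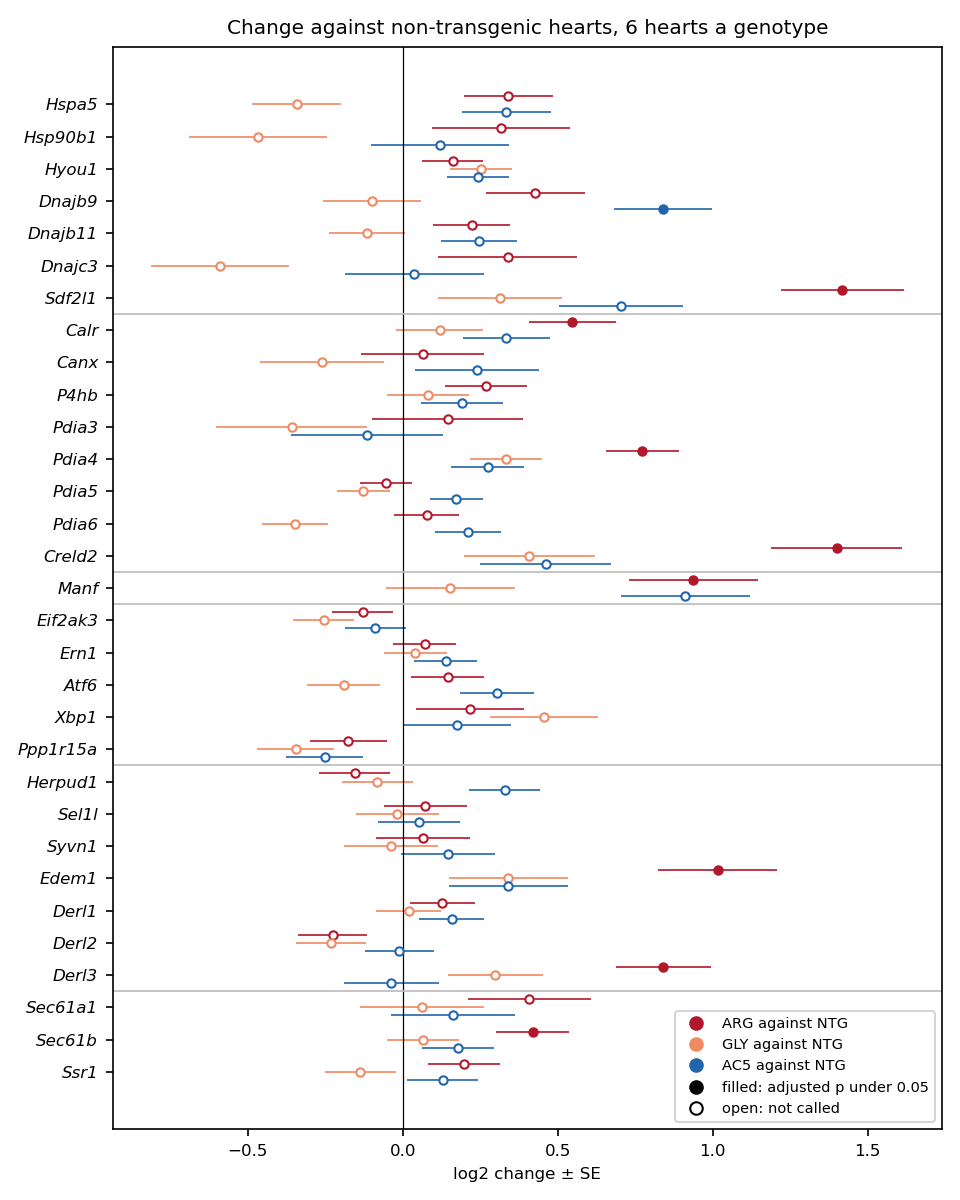
Log2 change against NTG hearts (± SE, 6 hearts per genotype) of the lead probe set of each of the 31 genes in ARG (red), GLY (orange) and AC5 (blue) hearts, grouped by role. Filled points have an adjusted p under 0.05. The 8 filled ARG points lie between 0.42 and 1.42, the filled AC5 point is Dnajb9, and no GLY point is filled.

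The receptor forms were set against each other directly, ARG over GLY. Of the 31 genes 5 were higher in ARG hearts and none lower, where 1.90% of all genes were called and 0.989% were higher. Of the 77 probe sets 8 were higher, where 1.51% of all probe sets were called. The median change was 0.34, against -0.03 for all genes, and 28 of the 31 genes were above 0. Sdf2l1 was higher by 1.11 ± 0.20 (2.15-fold, adjusted p = 0.0034) and Hspa5 by 0.68 ± 0.14 (1.60-fold, adjusted p = 0.011), and in both every ARG heart lay above every GLY heart, as in 0.275% of all genes. For Hspa5 the ratios were 1.06 to 1.53 (median 1.24) in ARG hearts, against 0.541 to 1.03 (median 0.848) in GLY hearts. Creld2 was higher by 0.99 ± 0.21 (adjusted p = 0.013), with ratios of 1.58 to 4.95 (median 2.69) in ARG hearts against 1.05 to 1.89 (median 1.32) in GLY hearts. Dnajc3 was higher by 0.93 ± 0.22 (adjusted p = 0.029), with ratios of 0.729 to 1.67 (median 1.20) in ARG hearts against 0.339 to 1.25 (median 0.690) in GLY hearts. Pdia6 was higher by 0.42 ± 0.11 (adjusted p = 0.038), with ratios of 0.846 to 1.24 (median 1.09) in ARG hearts against 0.674 to 0.944 (median 0.771) in GLY hearts. Its second probe set changed by -0.16 ± 0.09 and was not called, and with the mean of both the change was 0.13 ± 0.06 (adjusted p = 0.314). With such means 7 of the 31 genes were higher, where 2.59% of all genes were called. Among them were Manf (0.78 ± 0.21), Hsp90b1 (0.71 ± 0.19) and Edem1 (0.56 ± 0.12). Edem1 was also called at its second probe set (0.45 ± 0.10, adjusted p = 0.012) and Dnajc3 at a further one (0.69 ± 0.15, adjusted p = 0.016). For Hspa5 a second probe set was called higher (0.72 ± 0.15) and the third changed by 0.02 ± 0.10 with overlapping groups. Of the 5 genes called at their lead probe sets, 4 hold the ER stress element in the window printed or listed earlier, the exception being Sdf2l1. Of the 26 genes with a window 9 hold it, and a link between the element and the change was not tested. Pdia4 did not overlap between the groups and was not called (0.44 ± 0.12, adjusted p = 0.0529), and its second probe set changed by -0.16 ± 0.10.

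The calls between the receptor forms depended on the processing. After quantile normalization none of the 31 genes was called, with changes of 0.67 for Sdf2l1 (adjusted p = 0.0645), 0.60 for Dnajc3, 0.51 for Creld2, 0.46 for Hspa5 and 0.37 for Pdia6, and 0.154% of all genes called. Without the 3 arrays of low weight 8 genes were higher: Sdf2l1 (1.23), Creld2 (1.17), Manf (0.99), Derl3 (0.78), Dnajc3 (0.68), Calr (0.60), Hspa5 (0.48) and Pdia6 (0.48), where 1.86% of all genes were called. Within replicates 1 to 3 none was called, with changes of 0.94 for Sdf2l1, 0.62 for Creld2 and 0.83 for Hspa5, and within replicates 4 to 6 Creld2 (1.36) and Derl3 (1.06) were called. Of all genes 0.390% were called within replicates 1 to 3 and 0.577% within replicates 4 to 6. Leaving out single hearts gave 3 to 11 called genes, while the share of all probe sets called ran from 0.848% to 3.95%, and ended the call of Dnajc3 without GLY replicate 1, 3 or 5 or ARG replicate 2, 4 or 6, and that of Pdia6 without GLY replicates 1 to 5 or ARG replicate 2, 4, 5 or 6, each in turn.

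Set against AC5 hearts, ARG hearts were called higher for 5 of the 31 genes and lower for 1, where 6.34% of all genes were called, 3.16% higher and 3.19% lower. Creld2 (0.94 ± 0.21, adjusted p = 0.0067), Derl3 (0.88 ± 0.15, adjusted p = 0.00063), Sdf2l1 (0.71 ± 0.20, adjusted p = 0.033), Edem1 (0.68 ± 0.19, adjusted p = 0.037) and Pdia4 (0.50 ± 0.12, adjusted p = 0.0096) were higher. With the mean of its probe sets Pdia4 was not called (0.23 ± 0.09, adjusted p = 0.132), its second probe set changing by -0.03 ± 0.10. Derl3 was the one whose groups did not overlap (1.87% of all genes lay apart that way), with ratios of 1.39 to 3.00 (median 1.72) in ARG hearts against 0.846 to 1.23 (median 0.986) in AC5 hearts. Herpud1 was lower by -0.48 ± 0.11 (adjusted p = 0.01) at its lead probe set and called lower at its other one too. Its ratios were 0.863 to 1.01 (median 0.946) in ARG hearts, against 0.956 to 2.03 (median 1.26) in AC5 hearts. Manf, high in both, differed by 0.03 ± 0.21, a difference whose SE leaves room for changes in either direction. Of the 77 probe sets 7 were higher and 2 lower, where 4.93% of all probe sets were called. After quantile normalization Derl3 (0.57) and Herpud1 (-0.49) were called and Dnajb9 (-0.61) was called lower in ARG hearts, with 2.56% of all genes called. Creld2 (0.34), Edem1 (0.245), Pdia4 (0.22) and Sdf2l1 (0.19) were then not called, each change being smaller than without that step. Leaving out single hearts ended the call of Sdf2l1 (without AC5 replicate 1, 3, 4 or 6 or ARG replicate 2 or 4) and of Edem1 (without AC5 replicate 1, 2, 3, 4 or 6 or ARG replicate 4, 5 or 6). Within replicates 1 to 3 none of the 31 genes was called, where 0.649% of all genes were. Within replicates 4 to 6 Derl3 (1.15), Creld2 (1.06) and Edem1 (1.02) were called higher and none lower, where 4.0% of all genes were called.

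Set against AC5 hearts, GLY hearts were called lower for 4 of the 31 genes and higher for none, where 0.857% of all genes were called. Dnajb9 was lower by -0.94 ± 0.16 (adjusted p = 0.0033), with ratios of 0.667 to 1.14 (median 1.10) in GLY hearts, against 1.35 to 2.82 (median 1.86) in AC5 hearts, and no overlap, as in 0.544% of all genes. Hspa5 (-0.68 ± 0.14, adjusted p = 0.02) and Pdia6 (-0.56 ± 0.11, adjusted p = 0.0083) were lower in 5 of 6 GLY hearts than in any AC5 heart. Hspa5 had ratios of 0.541 to 1.03 (median 0.848) in GLY hearts and 1.02 to 1.72 (median 1.20) in AC5 hearts, and Pdia6 had 0.674 to 0.944 (median 0.771) in GLY hearts and 0.927 to 1.504 (median 1.11) in AC5 hearts. The second probe set of Pdia6 changed by 0.00 ± 0.09 and the third of Hspa5 by 0.12 ± 0.10, and with the mean of the probe sets both stayed called at -0.28 ± 0.06 (Pdia6) and -0.40 ± 0.09 (Hspa5). Atf6, the sensor that becomes a transcription factor once cleaved, was lower by -0.49 ± 0.12 (adjusted p = 0.044), with ratios of 0.606 to 1.03 (median 0.931) in GLY hearts, against 1.08 to 1.54 (median 1.22) in AC5 hearts, and no overlap. Of the 77 probe sets 4 were lower, where 0.693% of all probe sets were called, and the median of the 31 genes was -0.21 against 0.02 for all genes. The Hspa5 call was lost without AC5 replicate 2 or 5 or GLY replicate 3. Without the 3 arrays of low weight it was lost too (-0.43, adjusted p = 0.109). The Atf6 call was lost without those arrays (-0.33, adjusted p = 0.205) and after quantile normalization (-0.45, adjusted p = 0.0703). It was also lost with array weights (-0.39, adjusted p = 0.0827), with the mean of its probe sets (-0.38, adjusted p = 0.0817) and in 14 of 24 settings that leave out 1 heart. Other probe sets of Atf6 were not called, nor was the second of Hspa5 (-0.63 ± 0.15, adjusted p = 0.0525). Within replicates 1 to 3 Dnajb9 (-1.05) alone was called, and none within replicates 4 to 6, where 0.236% and 0.0605% of all genes were.

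The other 14 of the 31 genes had no called probe set in any comparison, over 38 probe sets. They were Hsp90b1, Dnajb11, Canx, P4hb, Pdia3, Pdia5, Eif2ak3, Ern1, Xbp1, Ppp1r15a, Sel1l, Syvn1, Derl1 and Ssr1. Their changes ran from -0.18 (Ppp1r15a) to 0.32 (Hsp90b1) in ARG against NTG hearts, from -0.47 (Hsp90b1) to 0.46 (Xbp1) in GLY against NTG hearts and from -0.25 (Ppp1r15a) to 0.245 (Dnajb11) in AC5 against NTG hearts. Between the receptor forms 13 of the 14 were higher in ARG hearts, by up to 0.78 ± 0.22 for Hsp90b1 (adjusted p = 0.0753), and Xbp1 was lower (-0.24 ± 0.17).

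Hearts of the same genotype differed in how far the set was raised. The median log2 ratio of the 31 genes was -0.03 to 0.62 in ARG hearts, -0.09 to 0.18 in GLY hearts, 0.02 to 0.63 in AC5 hearts and -0.08 to 0.11 in NTG hearts. In AC5 replicate 5 the median ratio was 1.54, and 27 of the 31 genes were above every NTG heart, as were 20.6% of all genes. In ARG replicate 4 it was 1.53, with 23 genes above every NTG heart and 20% of all genes. The medians of all genes in those hearts were 0.0046 and -0.0673 on the log2 scale. AC5 replicate 2 (20 genes, 18.6% of all genes) and ARG replicate 5 (19 genes, 23.4% of all genes) followed. ARG replicate 1 had 9 genes above every NTG heart and 5 below, and 30.7% and 23.5% of all genes lay so. Over the 31 genes the SD of the log2 ratios over 6 hearts had a median of 0.25 in ARG and 0.27 in GLY hearts. That median was 0.27 in AC5 and 0.14 in NTG hearts. Over all probe sets the mean SD was also lowest in NTG hearts (0.143), with 0.192 in ARG, 0.221 in GLY and 0.155 in AC5 hearts. Among the 31 genes the SD was widest for Creld2 in ARG hearts (0.56), Hsp90b1 in GLY hearts (0.73) and Manf in AC5 hearts (0.72).

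Genes with the ER stress element did not all move. In ARG against NTG hearts 3 of the 9 rose (Creld2, Derl3 and Calr), with a median change of 0.34. There 4.24% of all genes rose and 7.10% fell. Of the 17 genes with a window but no match 4 rose, with a median of 0.20. Of 11 further genes outside the set whose windows hold the element and that had a lead probe set, none rose and 1, Pan2, fell, with a median of -0.0022. Between ARG and GLY hearts 4 of the 9 were higher (Hspa5, Dnajc3, Pdia6 and Creld2), with a median change of 0.54. Without a match 1 of 17 was higher (Sdf2l1), with a median of 0.19, where 0.989% of all genes were higher. GLY replicates 1 and 3, the arrays with the lowest weights, had low ratios at the lead probe sets of Hspa5, Hsp90b1, Dnajc3 and Canx. Hspa5, Dnajc3, Pdia6 and Creld2 stayed called without the 3 arrays of low weight. After quantile normalization none of the 31 genes was called. The windows cover 300 bases, and a gene without a match may hold the element elsewhere.

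Lists of other genes at neighbouring steps of the secretory pathway were counted beside the 31, and the difference between the lists was not tested. In ARG against NTG hearts, where 11.3% of all genes were called, 4.24% rose and 7.10% fell, 4 of 37 other ER folding genes rose and 1 fell, with a median change of 0.03. Serpinh1, the collagen chaperone of the ER, rose by 0.72 ± 0.14, and P4ha1, which hydroxylates collagen prolines, by 0.60 ± 0.13. Tmx1, a membrane-bound thioredoxin-like protein, fell by 0.57 ± 0.16. Of 23 other degradation genes none rose and Ufd1, of the complex that extracts chains from the ER membrane, fell by 0.60 ± 0.10. Of 20 other translocon genes 2 rose, with Tram1, a translocating chain-associated protein, at 0.43 ± 0.11. Of 24 genes of N-linked glycosylation 2 rose, with Uap1, which makes UDP-N-acetylglucosamine, at 0.64 ± 0.13. Of 30 genes of transport between ER and Golgi 6 rose and 1 fell, with Tmed3, a cargo receptor, at 0.65 ± 0.17 and Sar1b, a GTPase of the COPII coat, at -0.27 ± 0.09. Of 21 other stress regulators 2 rose, with Creb3l1, an ER-anchored transcription factor related to Atf6, at 0.86 ± 0.14. Medians of these lists lay between 0.03 and 0.11. In GLY against NTG hearts 0 or 1 gene of each of these lists was called, except 2 of the transport genes, where 5.45% of all genes were called. In AC5 against NTG hearts none of any was called, where 0.176% of all genes were, so a count of 0 says nothing particular to these lists. Between ARG and GLY hearts, where 1.90% of all genes were called, P4ha1 (0.81 ± 0.13), Serpinh1 (0.66 ± 0.14), Uap1 (0.70 ± 0.13) and Creb3l1 (0.54 ± 0.14) were higher in ARG hearts.

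The list of Perk and Atf4 targets moved in ARG and AC5 hearts. Of its 20 genes 10 rose and 3 fell in ARG against NTG hearts (median 0.39), and 4 rose in AC5 against NTG hearts (median 0.24), where 11.3% and 0.176% of all genes were called. In GLY against NTG hearts none rose and 2 fell (median 0.08), where 5.45% of all genes were called. Asns, asparagine synthetase, rose by 1.67 ± 0.25 in ARG hearts and by 2.92 ± 0.25 in AC5 hearts. Ddit4, an inhibitor of mTORC1, fell by 0.90 ± 0.18 in ARG hearts. Atf4 itself changed by 0.11 ± 0.13 in ARG hearts, 0.09 ± 0.13 in GLY hearts and 0.16 ± 0.13 in AC5 hearts, none called. Ddit3, the transcription factor often called Chop and linked to cell death under ER stress, changed by -0.02 ± 0.10 in ARG hearts and 0.05 ± 0.10 in AC5 hearts, and fell by 0.35 ± 0.10 in GLY hearts (adjusted p = 0.035). Its ratios were 0.897 to 1.08 (median 1.01) in ARG hearts, 0.6248 to 0.896 (median 0.800) in GLY hearts, 0.820 to 1.32 (median 1.03) in AC5 hearts and 0.920 to 1.13 (median 1.00) in NTG hearts. Trib3, an Atf4 target that acts on Akt, rose by 0.62 ± 0.15 in ARG hearts (adjusted p = 0.0072). Between ARG and GLY hearts Chac1, which degrades glutathione, was higher by 1.10 ± 0.21, and Stc2, a secreted stanniocalcin, lower by -0.32 ± 0.08. Such genes also answer amino acid shortage through other kinases.

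Markers of other cell types moved in the same ARG hearts. Shares of all genes in ARG against NTG hearts were 4.24% risen and 7.10% fallen. Of 16 macrophage markers 11 rose, and their mean ratio over the list was 1.25 to 2.06 in ARG hearts, 0.860 to 1.51 in GLY hearts, 0.873 to 1.13 in AC5 hearts and 0.956 to 1.04 in NTG hearts. Of 12 fibroblast markers 6 rose and 1 fell, with mean ratios of 1.00 to 1.64 in ARG hearts, 0.742 to 1.36 in GLY hearts, 0.719 to 0.838 in AC5 hearts and 0.883 to 0.990 in NTG hearts. None of 11 plasma cell and B cell markers was called in ARG against NTG hearts, and their mean ratio was 0.989 to 1.06 in ARG hearts and 0.971 to 1.05 in NTG hearts. None of 8 T cell markers was called there, while 5 of 14 endothelial, 2 of 10 smooth muscle and pericyte and 3 of 12 cardiomyocyte markers fell. In AC5 against NTG hearts no marker of any list was called, where 0.176% of all genes were. A ratio cannot show which markers are near 0, and the part of other cell types in the rises was not tested.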

How the data were processed

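Total RNA of 24 hearts was labelled with biotin and hybridised to Affymetrix arrays, 6 hearts per genotype. Per the submitters' processing notes the tool was RMA, its version being not given in the sources used here. Values that the authors deposited are a linear ratio, near 1 in NTG arrays. That they were divided by the control level was read from the values and is not stated. Log2 was taken. The median log2 value of an array was -0.05 to 0.09, and the mean SD between hearts was 0.192 in ARG, 0.221 in GLY, 0.155 in AC5 and 0.143 in NTG. The number of arrays limits the precision.

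Of 45101 probe sets 64 controls were left out, and 45037 entered a limma fit (version 3.58.1, R 4.3.3; 1 mean per genotype, all 24 arrays, empirical Bayes), with Benjamini-Hochberg adjustment per comparison. Of these 34945 had 1 gene symbol (18193 genes, 18032 of them updated through Entrez identifiers), 932 had several and 9160 none. A gene's lead probe set was taken by suffix (_at, _a_at, _s_at, _x_at) and then lowest number. Python 3.11.15 with numpy 2.4.6, pandas 2.3.3 and, for figures, matplotlib 3.10.9 handled the tables. The fit was tested on simulated data. Most genes with a called probe set have ratios given in ARG and NTG hearts, and in GLY and AC5 hearts only in part. Of each pathway list, the called genes that rose most and fell most in ARG against NTG and ARG against GLY hearts are named, and Atf4, Ddit3 and Trib3 in any case, with a few others (Serpinh1 between the receptor forms and Asns in AC5 hearts) named after their values were seen. The 31 genes, the lists and the alternatives were chosen with earlier results of these data known. Alternatives were quantile normalization, median centring, a term for replicates 1 to 3 and 4 to 6, each of those sets alone, a replicate block, array weights, leaving out 3 arrays of low weight or each array in turn, only the 2 groups compared, the mean of a gene's probe sets, only probe sets ending in _at, and only probe sets with 1 symbol.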

Additional observations from a re-analysis of the deposited data

Results flagged for a closer look

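In 6 of 124 sets of 6 hearts (31 genes in 4 genotypes), 1 heart lay far from the other 5 by Dixon's test on the log2 ratio. Chance alone gives about 1 in 20. Pdia4 was 1.49 in ARG replicate 4, against 0.59 to 0.80 in the other ARG hearts, and Ppp1r15a was 0.32 in ARG replicate 6, against -0.34 to -0.11. Pdia3 was 0.89 in AC5 replicate 5, against -0.48 to 0.03 in the other AC5 hearts, and Syvn1 was 0.94 in the same heart, against -0.25 to 0.19. Derl2 was -0.30 in AC5 replicate 3, against -0.07 to -0.02. Dnajb11 was -0.19 in NTG replicate 5, with the other NTG hearts at up to 0.08. Of the genes named, Pdia4 was called in ARG against NTG hearts, and it stayed called without ARG replicate 4 (0.63).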

How the results depend on the processing

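The 24 gene calls kept their direction in all 859 values from the alternatives, and 114 of those values lost the call. Counts follow the order ARG against NTG, GLY against NTG, AC5 against NTG, ARG against GLY, ARG against AC5 and GLY against AC5, first for the 31 genes and then for the 77 probe sets, with the percent of all probe sets called in the same setting in brackets. The counts of the report were 8, 0, 1, 5, 6 and 4 genes and 17, 0, 1, 8, 9 and 4 probe sets (9.67, 5.08, 0.142, 1.51, 4.93 and 0.693%). Quantile normalization gave 6, 0, 3, 0, 3 and 5 genes and 11, 0, 5, 0, 4 and 7 probe sets (5.33, 1.41, 0.884, 0.129, 1.97 and 0.366%). Replicates 1 to 3 alone gave 4, 7, 0, 0, 0 and 1 genes and 4, 9, 0, 1, 0 and 1 probe sets (2.89, 6.08, 0.04, 0.404, 0.542 and 0.209%), and replicates 4 to 6 alone gave 6, 0, 0, 2, 3 and 0 genes and 14, 0, 0, 2, 5 and 0 probe sets (5.59, 0.16, 0, 0.426, 3.04 and 0.0355%). Array weights gave 9, 1, 3, 9, 6 and 5 genes and 21, 1, 6, 14, 10 and 7 probe sets (13.0, 6.25, 1.17, 1.45, 6.63 and 0.844%). Without the 3 arrays of low weight there were 11, 0, 2, 8, 6 and 2 genes and 24, 0, 3, 16, 12 and 7 probe sets (13.2, 2.91, 0.417, 1.53, 7.86 and 0.606%). With only the 2 groups compared there were 10, 2, 1, 2, 4 and 1 genes and 22, 2, 2, 2, 8 and 1 probe sets (11.2, 2.77, 0.664, 0.211, 4.92 and 0.28%). The term for the sets gave 8, 1, 1, 9, 6 and 4 genes and 17, 1, 1, 15, 10 and 5 probe sets (10.6, 6.05, 0.184, 1.95, 5.58 and 0.941%), and median centring 8, 1, 1, 7, 6 and 4 genes and 17, 1, 1, 11, 10 and 5 probe sets (9.41, 4.82, 0.115, 1.37, 4.72 and 0.713%). Only probe sets ending in _at gave 6, 0, 1, 4, 5 and 3 genes and 10, 0, 1, 6, 7 and 3 probe sets (8.49, 4.55, 0.0859, 1.30, 4.28 and 0.61%). Only probe sets with 1 symbol gave 8, 0, 1, 7, 6 and 4 genes and 17, 0, 1, 12, 10 and 5 probe sets (11.2, 5.75, 0.163, 1.85, 6.00 and 0.861%). The mean of a gene's probe sets gave 11, 0, 1, 7, 5 and 3 genes (13.3, 6.04, 0.176, 2.59, 8.13 and 1.28% of all genes).

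Leaving out 1 heart at a time gave 7 to 9, 0 to 4, 0 to 2, 3 to 11, 4 to 6 and 2 to 5 genes, and 15 to 20, 0 to 5, 0 to 3, 5 to 20, 6 to 11 and 2 to 8 probe sets (7.75 to 10.7, 2.97 to 8.79, 0.0488 to 0.2, 0.848 to 3.95, 3.53 to 5.59 and 0.349 to 1.29%). The other pathway lists held 37, 23, 20, 24, 30, 21 and 20 matched genes. Of these genes 32 were called in ARG against NTG hearts, 13 of them Perk and Atf4 targets, where 11.3% of all genes were called. On leaving out 1 heart 24 to 35 were called. There were 19 after quantile normalization (6.69% of all genes) and 10 within replicates 1 to 3 (3.58% of all genes). The replicate block gave 8, 0, 1, 6, 6 and 4 genes, 17, 0, 2, 11, 10 and 5 probe sets (10.1, 5.72, 0.158, 1.63, 5.09 and 0.715%) and 34 pathway genes. It changed none of the 24 calls. Hearts share only a number: deviations of same-numbered hearts correlated from -0.289 to 0.492, and 3 of 6 pairs of ARG and GLY hearts correlated best with their own number. Ratios hold no signal over background, so dim probe sets could not be set apart, and 6 hearts per genotype limit the precision. Where a call was lost, the cause was not tested.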
